A study of Mus musculus with 32 samples.

Results

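Potassium channel genes were taken by symbol, from the probe sets of the array whose single annotated gene symbol begins with Kcn. The genes described are 61, with 89 probe sets, out of 12393 genes and 22626 probe sets tested. The genes were grouped by the family their symbol names. Each gene is described by its brightest probe set, the one with the highest mean log2 level over all 32 arrays. Of the 61 genes, 41 had 1 probe set and 20 had several.

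The study measured mRNA in the midbrain and the medulla of mice without the cholecystokinin B receptor gene Cckbr (KO) and of control mice, after chronic constriction injury (CCI), a model of neuropathic pain, or a sham operation. The groups were KO CCI midbrain, KO sham midbrain, control CCI midbrain, control sham midbrain, KO CCI medulla, KO sham medulla, control CCI medulla and control sham medulla, with 4 arrays in each. Both regions came from each of the 16 animals. The labels used here give no age, sex, strain or time after surgery. They do not say which nerve was constricted or on which side the tissue was taken. All values are averages over every cell type of a dissected region. In such bulk tissue, fewer cells of a type and less RNA per cell cannot be told apart.

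Potassium channels let potassium leave a neuron, which brings the membrane back to rest after a spike and sets how easily the next spike starts. Voltage-gated channels of the Kcna to Kcnd, Kcnh and Kcnq families open on depolarization, inward rectifiers of the Kcnj family and background channels of the Kcnk family act near rest, and the Kcnn and Kcnma1 channels are opened by calcium. In glia the Kcnj10 channel takes up potassium released by active neurons. Both regions hold relays of descending pain control, among them the periaqueductal grey in the midbrain, and channels gated by G proteins (Kcnj3, Kcnj5, Kcnj6 and Kcnj9) carry part of the inhibition that opioids exert there.

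The arrays kept to their labels. Cckbr read between -1.49 and 24.1 intensity units on the KO arrays and between 122 and 200.2 on the control arrays. Of 9 midbrain marker genes 7 were higher in midbrain, and all 11 measured Hox genes, which mark the hindbrain, were lower there. The summed Hox level ran from 153 to 289 units on midbrain arrays and from 1142 to 2684 on medulla arrays. Of the cell type markers, 7 of 10 astrocyte genes were lower in midbrain and 1 (Slc1a3) higher, 7 of 9 oligodendrocyte genes were lower, 6 of 12 general neuronal genes were lower and 2 higher, 4 of 5 motor neuron genes were lower, 5 of 8 dopamine neuron genes were higher and 1 (Aldh1a1) lower, and none of 10 microglia genes passed. Of 8 choroid plexus genes 6 were lower in midbrain and 1 higher. Their summed level ran from 812 over a median of 1536 to 5845 units on midbrain arrays, and from 1207 over 9605 to 11575 on medulla arrays. Median intensity per array ran from 91.01 to 99.9 units. KO sham medulla 3 stood apart on the first principal component of the medulla arrays and carried cerebellar genes, with a summed level of 10310 units for 9 such genes against at most 4888 on the other medulla arrays. KO sham midbrain 2 and 4 stood apart among the midbrain arrays, and by array number KO sham midbrain 4 comes from the animal of KO sham medulla 3. By title number it would pair with KO sham medulla 4 instead. All counts of animals below follow the array numbers. For the comparisons that use these 3 arrays, values without them are given beside the counts and beside some of the members. Other members moved without them too.

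Midbrain and medulla differed in the level of 23 of the 61 potassium channel genes, 10 of them higher and 13 lower in midbrain. Across all genes tested the share called was 24.3%, and 12.2% in each direction, so the 37.7% among potassium channel genes is read against that level. Kcnk2 had the largest difference upward and Kcnj14 the largest downward. The members called higher included the Kcna3, Kcna4 and Kcna6 pore subunits and the A-type partners Kcnip1 and Kcnip4. The members called lower included Kcna1, Kcna2, the A-type partner Kcnip3 and all 3 Kcnab subunits that bind Kcna channels. Differences are given as log2 of midbrain over medulla after adding 16 units, which understates the change of dim probe sets, and calls rest on limma's moderated test with Benjamini-Hochberg adjustment under 0.05. At the probe set level, 30 of 89 were called, 14 higher and 16 lower, against 21.5% of all probe sets, 10.5% of them higher and 11% lower. Without the 3 arrays that stood apart 24 genes were called (28.3% of all genes), 20 of them among the 23, and all 23 kept their direction. The calls of Kcna2, Kcna6, Kcnab3, Kcnc4, Kcnd2 and Kcnj9 were each lost under at least 1 other processing setting or set of arrays, beside those within a single array code.

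**Figure D1:**
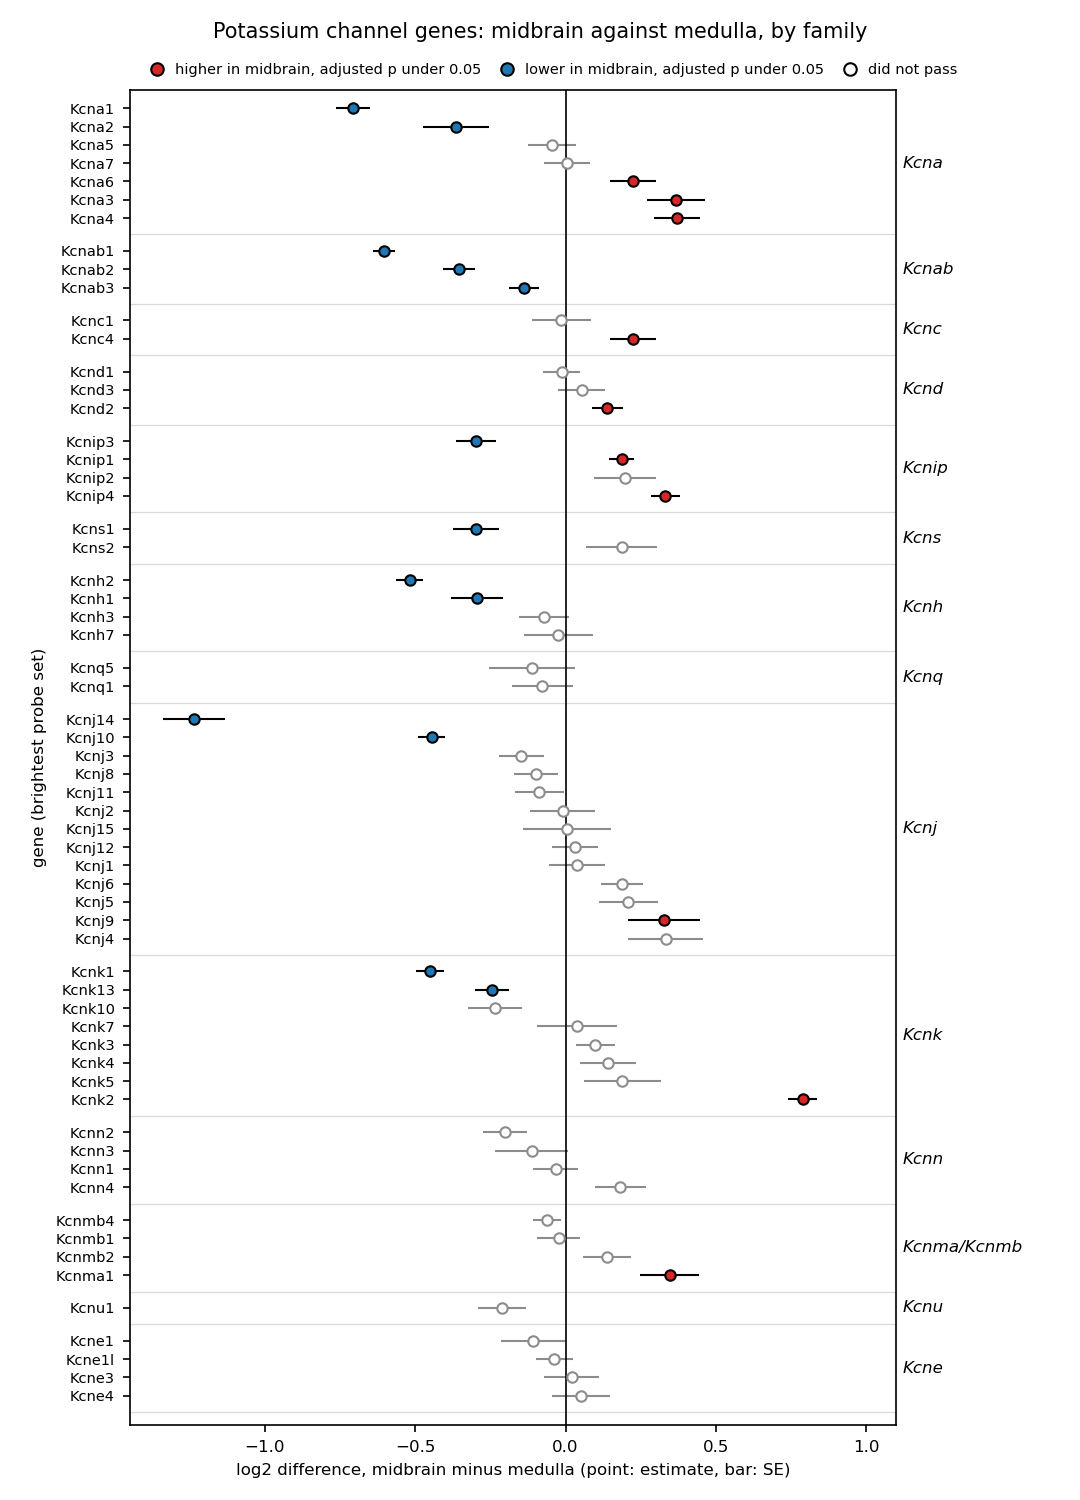
Difference between midbrain and medulla for the brightest probe set of each of the 61 genes, with families down the page and the log2 difference (midbrain minus medulla) across it; points are estimates over 32 arrays and bars are standard errors. Kcnj14 at -1.24 and Kcnk2 at 0.79 are the extremes, and all 3 Kcnab genes lie left of 0.

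The start regions of 4 members are shown first, as the genomic context of the largest differences. For each direction these are the 2 called genes with the largest difference among those with exactly 1 listed transcription start. Each line holds the 150 bases just upstream of the start in RefSeq's annotation of the mouse build GRCm38.p6, read 5′ to 3′ on the gene's strand, and capitals mark the motif GGGCGG or its reverse complement CCGCCC, the core of the GC box that Sp-family factors bind. Kcnh2 and Kcnk1 were lower in midbrain, and Kcna4 and Kcna3 were higher. The windows lie at chr5:24329592-24329741 on the minus strand for Kcnh2, and on the plus strand at chr8:125994952-125995101 for Kcnk1, chr2:107290439-107290588 for Kcna4 and chr3:107036012-107036161 for Kcna3.
Kcnh2: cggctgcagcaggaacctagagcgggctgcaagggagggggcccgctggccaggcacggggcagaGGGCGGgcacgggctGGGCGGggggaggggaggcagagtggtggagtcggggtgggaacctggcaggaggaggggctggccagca
Kcnk1: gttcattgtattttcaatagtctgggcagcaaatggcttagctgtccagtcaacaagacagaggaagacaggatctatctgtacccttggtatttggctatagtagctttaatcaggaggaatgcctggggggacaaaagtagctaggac
Kcna4: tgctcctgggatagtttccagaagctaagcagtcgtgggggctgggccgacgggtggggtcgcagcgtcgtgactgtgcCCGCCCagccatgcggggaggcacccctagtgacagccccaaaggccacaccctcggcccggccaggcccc
Kcna3: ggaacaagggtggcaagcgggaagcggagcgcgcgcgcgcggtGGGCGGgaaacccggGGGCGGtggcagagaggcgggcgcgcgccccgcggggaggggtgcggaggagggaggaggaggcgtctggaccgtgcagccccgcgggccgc
The motif occurs 2 times in the Kcnh2 and Kcna3 windows, 1 time in that of Kcna4 and not in that of Kcnk1. Of the 61 genes, 49 had a listed start and 38 had exactly 1. Within 250 bases upstream the motif stood in 21 of these 38 genes (55.3%), against 32.4% of 22862 genes with 1 listed start. It stood in 5 of 7 genes that were higher in midbrain, 4 of 7 that were lower and 12 of 24 that did not pass. Median GC content of the windows was 62% for the 38 genes and 52% for all genes, and the part of base composition in the motif count was not tested. A match describes these letters alone.

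Among the Kcna genes, which encode pore subunits of low-threshold voltage-gated channels of axons and terminals, 3 of 7 were higher in midbrain, 2 were lower and 2 did not pass. Kcna1, the axonal subunit mutated in episodic ataxia, ran from 670 over a median of 907 to 1120 units on the 16 midbrain arrays, against 1242, 1493 and 1703 on the medulla arrays. No midbrain array reached the lowest medulla array, and after normalization, the scale of every such count, the midbrain sample was the lower one in 16 of 16 animals. The log2 difference was -0.71 (SE 0.056, 1.63-fold lower, adjusted p = 1.19e-10). Kcna2, its frequent partner in one channel, lay at 29.3, 114 and 149 units in midbrain and 79.0, 145 and 181 in medulla, with overlapping arrays (log2 difference -0.36, SE 0.11, adjusted p = 0.0165). Its lowest value came from KO sham midbrain 2, an array whose Actb probe sets read 1.60 log2 units higher at the transcript's 3' end than at its 5' end, where the other arrays reached 0.78. Without the 3 arrays that stood apart the Kcna2 difference was -0.27 (adjusted p = 0.0168), and without the 2 animals of low choroid plexus Ttr level it was not called (-0.32, adjusted p = 0.0741).

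The other 3 called Kcna genes ran the opposite way. Kcna4, which forms fast-inactivating A-type channels, lay at 48.2, 62.8 and 86.3 units in midbrain and 29.4, 42.95 and 65.1 in medulla, and was higher in 14 of 16 animals (log2 difference 0.37, SE 0.076, adjusted p = 0.000538). Kcna3, known also from lymphocytes and microglia, lay at 43.8, 96.6 and 127 units in midbrain and 49.0, 68.6 and 91.9 in medulla (0.37, SE 0.095, adjusted p = 0.00499), and 0.45 without the 3 arrays. Kcna6 was higher by 0.22 (SE 0.076, adjusted p = 0.0339) in 15 of 16 animals, a call lost without those arrays (0.18, adjusted p = 0.117) and in 8 of 32 omissions of a single array. Arrays of both regions overlapped for each of these genes. Kcna5 at -0.05 and Kcna7 at 0.00 did not pass.

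All 3 genes for the cytoplasmic Kcnab subunits, which attach to Kcna channels and change their inactivation and traffic, were lower in midbrain. Kcnab1, which gives Kcna channels fast inactivation, ran from 392 over 466 to 492 units in midbrain, against 614, 681 and 782 in medulla. The groups did not overlap, and the log2 difference of -0.60 had an SE of 0.038 (1.52-fold lower, adjusted p = 6.97e-13). Its second probe set was lower by 0.72 (adjusted p = 2.66e-07). Kcnab2 lay at 685, 781 and 926 units in midbrain and 886, 995 and 1243 in medulla, and was lower in 16 of 16 animals (-0.35, SE 0.053, adjusted p = 9.09e-06). Kcnab3 was lower by 0.14 (SE 0.050, adjusted p = 0.0469) in 13 of 16 animals, which was not called without the 3 arrays (-0.10, adjusted p = 0.106) nor in 20 of 32 omissions of a single array. Its second probe set read -0.13 (adjusted p = 0.259).

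Kcnc and Kcnd channels repolarize fast-firing neurons and dendrites. Kcnc1, typical of fast-spiking cells, had medians of 721 units in midbrain and 766 in medulla and did not differ detectably (-0.01, SE 0.099, adjusted p = 0.945). Kcnc4 lay at 416, 491 and 552 units in midbrain and 283, 430 and 526 in medulla (0.22, SE 0.077, adjusted p = 0.0377), and its other probe set read 0.28 (adjusted p = 0.000282). The call on the brighter Kcnc4 probe set was lost in 14 of 32 omissions of a single array and within the higher of the array codes that the sample descriptions carry (0.06, adjusted p = 0.653). Kcnd2, a main subunit of dendritic A-type current, was higher by 0.14 (SE 0.051, adjusted p = 0.0484) on its brightest probe set, while its other 2 read -0.03 and 0.06 and did not pass. The Kcnd2 call was lost in 24 of 32 omissions of a single array, with differences from 0.12 to 0.16. Kcnd1 and Kcnd3 did not pass.

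Of the 4 Kcnip genes, whose calcium-binding products sit on Kcnd channels, 2 were higher in midbrain and 1 was lower. Kcnip4 lay at 254, 375 and 443 units in midbrain and 226, 295 and 346 in medulla, and was higher in 15 of 16 animals (0.33, SE 0.048, adjusted p = 5.98e-06). Kcnip1 was higher by 0.19 (SE 0.043, adjusted p = 0.00174), and its other 3 probe sets read 0.04, 0.13 and 0.50, of which the last passed. Kcnip3, also known as a calcium-controlled repressor of the dynorphin gene, lay at 145, 214 and 253 units in midbrain and 214, 269 and 371 in medulla (-0.30, SE 0.066, adjusted p = 0.00118). Kcnip2, named after its values were seen, was the 1 gene called by another probe set but not by its brightest: the brightest read 0.20 (adjusted p = 0.190), the other 0.58 (adjusted p = 0.000101).

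Of the remaining voltage-gated genes, Kcnh2 and Kcnh1 were lower in midbrain. Kcnh2, the ether-a-go-go related channel that slows repetitive firing, ran from 298 over 341 to 526 units in midbrain, against 424, 506 and 572 in medulla. It was lower in 16 of 16 animals (-0.52, SE 0.044, 1.43-fold, adjusted p = 4.71e-10), although the highest midbrain value, from KO sham midbrain 4, lay inside the medulla range, above the 511 units of its animal's medulla before normalization. The Kcnh2 difference without the 3 arrays was -0.54 (adjusted p = 3.9e-11). That array also held the highest midbrain values of Kcnj14 and Kcnk1, and a summed choroid plexus marker level of 5845 units for 8 genes, against 812 to 2936 on the other midbrain arrays. The part of this in the values was not tested. Kcnh1 was lower by 0.29 (SE 0.087, adjusted p = 0.0141) in 16 of 16 animals. Kcns1, a silent subunit that joins Kcnb channels and falls in injured sensory neurons of the rat, lay at 6.34, 13.4 and 24.5 units in midbrain and 10.9, 21.9 and 29.8 in medulla (-0.30, SE 0.076, adjusted p = 0.00445). Kcnh3, Kcnh7, Kcns2, Kcnq1 and Kcnq5 did not pass.

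Of 13 Kcnj inward rectifier genes 2 were lower in midbrain, 1 was higher and 10 did not pass. Kcnj14, an inward rectifier found in cranial motor nuclei of the rat, ran from 25.4 over 34.9 to 66.6 units in midbrain, against 54.2, 102 and 153 in medulla. It was lower in 15 of 16 animals, the largest difference of the 61 genes in either direction (-1.24, SE 0.10, 2.36-fold, adjusted p = 2.99e-10). By array number the overlap came from 1 animal: the highest midbrain value was that of KO sham midbrain 4 and the lowest medulla value that of KO sham medulla 3. Title numbers place these arrays with different animals. Without the 3 arrays the difference was -1.36 (adjusted p = 4.22e-12). The summed level of 5 motor neuron genes ran from 126 to 227 units on midbrain arrays and from 313 to 607 on medulla arrays, with 4 of the 5 called lower and its lowest medulla value also on KO sham medulla 3. The part of motor neuron content in the Kcnj14 difference was not tested.

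Kcnj10, the main potassium uptake channel of astrocytes and oligodendrocytes, ran from 1801 over 2044 to 2395 units in midbrain, against 2672, 2840 and 3577 in medulla. The groups did not overlap (-0.45, SE 0.046, 1.36-fold, adjusted p = 1.56e-08). The summed level of 10 astrocyte genes likewise did not overlap, at 13257 to 14411 units in midbrain against 15101 to 17715 in medulla. Oligodendrocyte genes summed to 22583 to 25532 units in midbrain and 25205 to 29519 in medulla. The part of glial content in the Kcnj10 difference was not tested.

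The G protein-gated members were weaker. Kcnj9 lay at 57.2, 74.5 and 165 units in midbrain and 38.1, 54.2 and 143 in medulla, with wide overlap, and was called higher (0.33, SE 0.12, adjusted p = 0.0490), while its other 2 probe sets read -0.05 and -0.02. Without the 3 arrays Kcnj9 was not called (0.30, adjusted p = 0.0959), nor in 22 of 32 omissions of a single array. Kcnj6 read 0.19 (adjusted p = 0.0517), with 5 probe sets between -0.16 and 0.21, Kcnj5 read 0.21 (adjusted p = 0.142) and Kcnj3 -0.15 (adjusted p = 0.177). Just outside the threshold were also Kcnj4, a strong rectifier, at 0.33 (adjusted p = 0.0559) and the small-conductance calcium-activated channel Kcnn2 at -0.20 (adjusted p = 0.0517). With the animal as a block, both of these passed (adjusted p = 0.0212 and 0.00129). Without the 3 arrays Kcnj4, Kcnj6, Kcnn2 and the sperm channel gene Kcnu1 passed (adjusted p = 0.0376, 0.0426, 0.0357 and 0.00249).

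Of 8 background channel genes of the Kcnk family, 1 was higher in midbrain, 2 were lower and 5 did not pass. Kcnk2, a leak channel opened by stretch, warmth and arachidonic acid whose loss makes mice more sensitive to painful heat, ran from 320 over 392 to 470 units in midbrain, against 190, 225 and 256 in medulla. Every midbrain array lay above every medulla array, and the difference was 0.79 (SE 0.047, 1.73-fold higher, adjusted p = 3.25e-13). Kcnk1, a weakly conducting leak channel, lay at 631, 793 and 1065 units in midbrain and 985, 1083 and 1165 in medulla (-0.45, SE 0.047, adjusted p = 2.29e-08). Its second probe set was lower without overlap (-0.62, adjusted p = 9.04e-09). Kcnk13, a leak channel known from microglia, was lower by 0.24 in 16 of 16 animals (SE 0.056, adjusted p = 0.00156), and the part of microglial content in this was not tested. None of 10 microglia marker genes passed between the regions.

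Kcnma1, the pore subunit of the large-conductance channel opened by calcium and voltage, lay at 121, 338 and 430 units in midbrain and 163, 257 and 300.1 in medulla (0.35, SE 0.098, adjusted p = 0.0104). Its lowest midbrain value was that of KO sham midbrain 2, and without the 3 arrays the difference was 0.46 (adjusted p = 1.89e-05). None of its accessory subunit genes Kcnmb1, Kcnmb2 and Kcnmb4, of the 4 Kcnn genes or of the 4 Kcne genes passed on its brightest probe set.

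**Figure D2:**
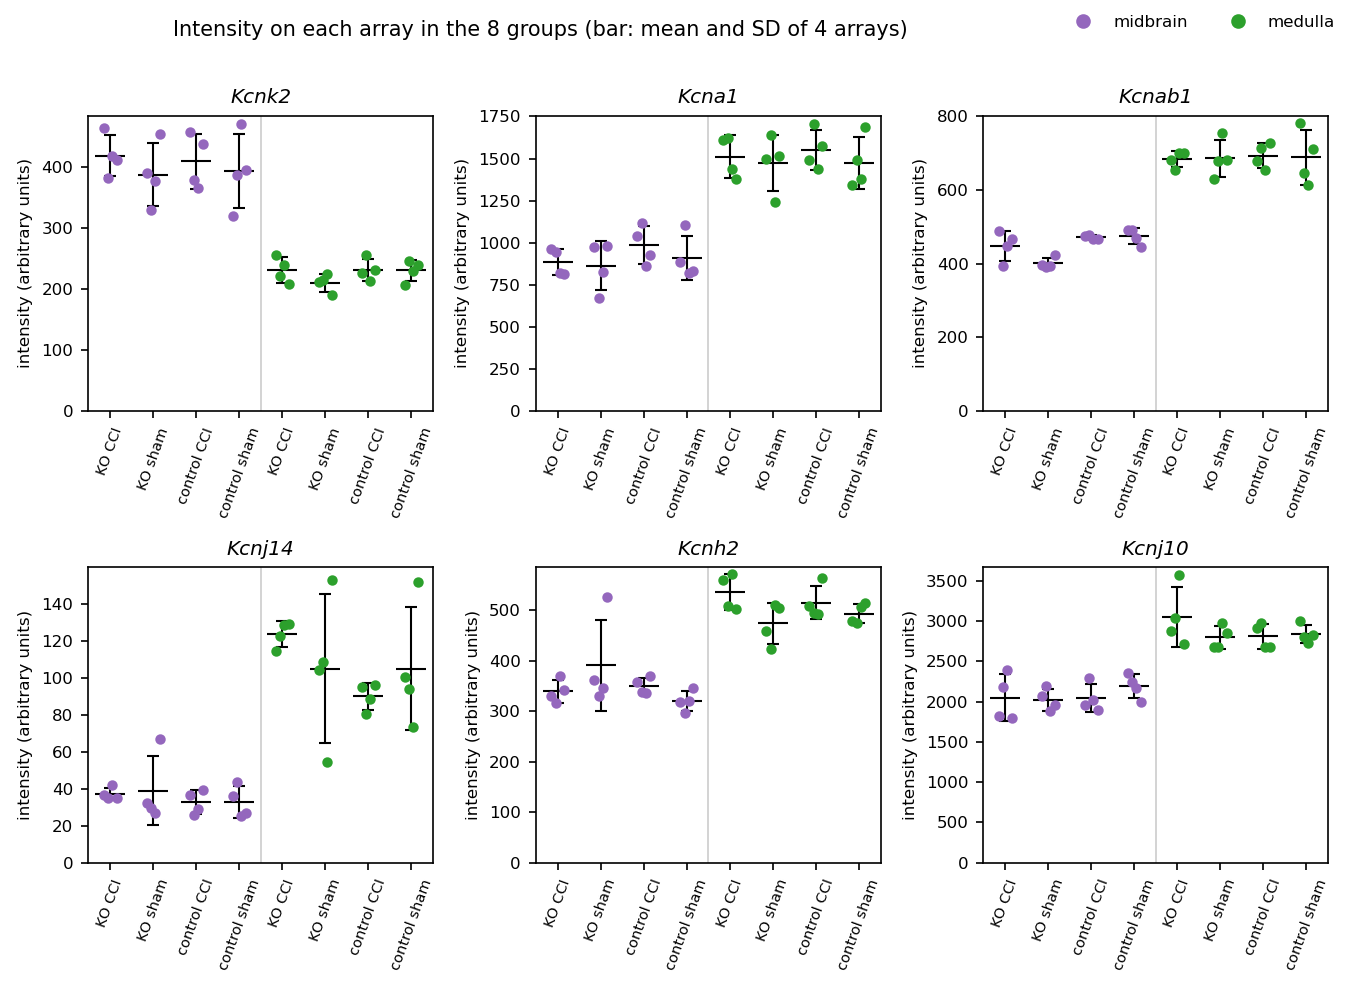
Intensity of 6 genes on each of the 32 arrays in the 8 groups of 4, with midbrain groups left of medulla groups; points are arrays and black bars the mean and SD. For Kcnk2 the midbrain arrays lie between 320 and 470 units and the medulla arrays between 190 and 256, while KO sham midbrain 4 sits apart for Kcnh2 (526 units) and Kcnj14 (66.6 units).

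Brightness bears on these counts. Of the 25 genes whose brightest probe set averaged at least 100 units, 17 were called, against 34.2% of all genes of that brightness. Of the 36 dimmer genes 6 were called, against 12.3%. The median absolute difference of the 61 genes was 0.182 and that of all genes 0.096, while the signed medians were -0.014 and 0.011. In 4 of the 61 genes the 16 midbrain arrays did not overlap the 16 medulla arrays, Kcnk2 above and Kcna1, Kcnab1 and Kcnj10 below, against 1.98% of all genes. Of 20 genes with several probe sets, 14 had all of them on the same side of 0, and none had calls in opposite directions.

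Genes outside the Kcn symbols whose products bind or cluster potassium channels were counted as well. Of 18 measured, 3 were higher in midbrain and 2 lower, 27.8% in all, which lies near the 24.3% of all genes. The ubiquitin ligase Nedd4l, which removes Kcnq channels from the membrane, was higher by 0.47 (adjusted p = 0.000234), the Kcnd partner Dpp6 by 0.16 (adjusted p = 0.00792) and the scaffold Dlg1 by 0.09 (adjusted p = 0.0477). The axonal anchor Epb41l3, which holds Kcna channels beside the nodes, was lower by 0.30 (adjusted p = 1.71e-05), as was Abcc9, the partner of Kcnj8 in channels closed by ATP, by 0.28 (adjusted p = 0.00117). Kcnj8 itself read -0.10 (adjusted p = 0.390).

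The region differences were also read within each of the 4 animal groups, which have 4 animals each. All 23 called genes kept their direction in all 4. This is partly built in, because the calls rest on the average of these same 4 differences. Past the threshold were 10 of 89 probe sets in KO CCI mice (4.76% of all probe sets), 10 in KO sham mice (7.11%), 11 in control CCI mice (4.37%) and 10 in control sham mice (3.21%). With the animal as a block the count in KO sham mice was 18 (11.7% of all probe sets), and without the 3 arrays, which leaves 2 midbrain and 3 medulla arrays, it was 10 (5.66%). Kcna1, Kcnab1, Kcnh2, Kcnj10, Kcnj14, Kcnk1 and Kcnk2 passed in each group, and 13 of the 23 passed in none of them. Kcnk2 read 0.84 in KO CCI, 0.81 in KO sham, 0.78 in control CCI and 0.72 in control sham mice, and Kcnj14 read -1.42, -1.16, -1.06 and -1.30 in the same groups. Kcnh2 read -0.62 in KO CCI, -0.31 in KO sham, -0.54 in control CCI and -0.60 in control sham mice, closest to 0 in the group that holds KO sham midbrain 4. In KO sham mice without the 3 arrays Kcnh2 read -0.38 (adjusted p = 0.0103), Kcnj14 -1.66 (adjusted p = 5.38e-06) and Kcnma1 0.50 (adjusted p = 0.0787), against 0.05 for Kcnma1 with them. The interaction of genotype with region was called for 0 of 89 probe sets in limma's test, with 2 at an unadjusted p under 0.05 (3.8% of all probe sets), and that of CCI with region in control mice for 0, with 1 (1.8%). Over all probe sets each was called for 0%. Without the 3 arrays the interaction of genotype with region was called for 0 of 89 (0.00442% of all probe sets), with 7 at that unadjusted p (8.31%).

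**Figure D3:**
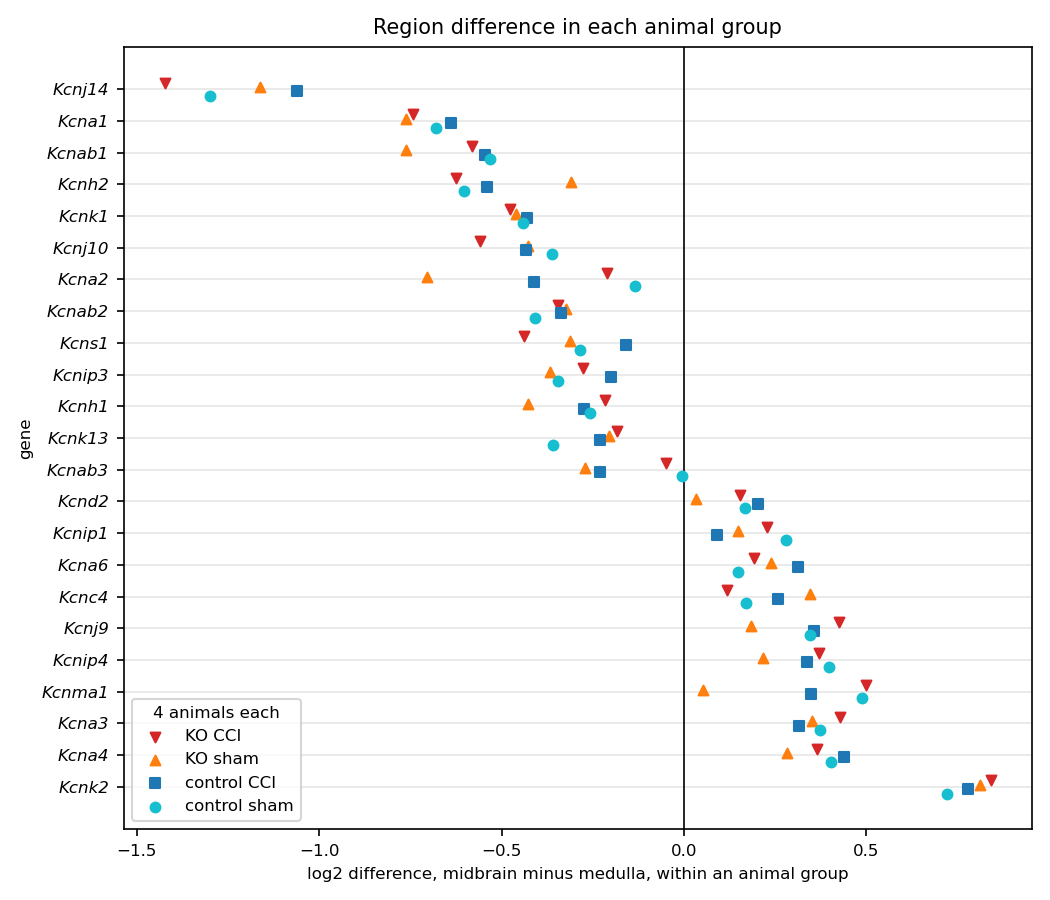
Difference between midbrain and medulla (log2, across the page) within KO CCI, KO sham, control CCI and control sham mice for the 23 genes called over all animals; each symbol is the estimate from 4 animals. All symbols of a gene lie on one side of 0. Those of Kcnab3 in control sham mice and Kcnd2 and Kcnma1 in KO sham mice come close to it. The calls rest on the average of these same 4 estimates.

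The sample descriptions carry an array code of a meaning the labels do not state, and it splits the animals in 3. The higher code holds 2 animals of each group, the lower code 2 of each but 1 control sham animal, and the remaining code only 1 control sham animal. With this code as a block 25 genes were called (27.5% of all genes). Within the lower code 12 genes passed (8.95%) and within the higher code 15 (11.2%), and all 23 genes had the same direction in both. In the fit within the lower code the lone control sham animal is assumed to vary like the others. As the 23 calls rest on these same arrays, a shared direction is partly built in. Kcnk2 read 0.74 and 0.84 in the lower and the higher code, Kcna1 -0.65 and -0.74, Kcnab1 -0.55 and -0.63, and Kcnj14 -1.18 and -1.27. Kcnc4 (0.43 and 0.06) and Kcna4 (0.57 and 0.22) were the least alike of the called genes upward.

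The comparison of KO with control mice asks whether loss of the receptor goes with another level of these channels. No potassium channel probe set passed in either region: 0 of 89 in midbrain, where 0.0309% of all probe sets were called, and 0 of 89 in medulla, where 0.053% were. At an unadjusted p under 0.05 stood 8 of 89 in midbrain (7.49% of all probe sets) and 3 in medulla (3.36%). CCI and sham mice taken apart gave 0 called as well. In midbrain 0.00884% of all probe sets were called in CCI mice and 0.0133% in sham mice, with 3 members (4.96% of all probe sets) and 10 members (8.47%) at an unadjusted p under 0.05. In medulla 0.00442% were called in CCI mice and 0.0133% in sham mice, with 1 member (2.44%) and 7 members (3.81%) at that p. No member passed without the 3 arrays either, and averaged over operation 20 of 89 stood at that p in midbrain (15.5% of all probe sets) and 2 in medulla (4.14%). In sham mice the counts without them were 17 in midbrain (10.5%) and 5 in medulla (3.66%). Among members that moved in midbrain, averaged over operation, Kcnn3 read 0.11 with the 3 arrays and 0.40 without them (adjusted p = 0.128). Kcnma1 read -0.17 with them and 0.06 without. With all arrays the smallest adjusted p of any member in these 6 comparisons was 0.468, for Kcnab1 in sham midbrain.

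Kcnab1 in midbrain was the member with the smallest p. Its 4 arrays read 488, 393, 448 and 466 units in KO CCI midbrain, against 475, 478, 466 and 467 in control CCI midbrain. In KO sham midbrain they read 396, 392, 393 and 424 units, against 492, 491, 471 and 445 in control sham midbrain. All 4 KO sham arrays lay below all 4 control sham arrays, while the CCI groups overlapped. As Kcnab1 was picked for its small p, that separation adds no evidence of its own. Averaged over operation the log2 difference was -0.15 (SE 0.048, unadjusted p = 0.00727, adjusted p = 0.535), and in sham mice -0.24 (SE 0.068, unadjusted p = 0.00315, adjusted p = 0.468). Its second probe set read -0.34 averaged over operation (adjusted p = 0.636). With the 3 arrays left out, which leaves 2 KO sham midbrain arrays, Kcnab1 read -0.16 averaged over operation (adjusted p = 0.189) and -0.25 in sham mice (adjusted p = 0.305).

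Kcnj4 in midbrain read 23.7, 18.7, 28.6 and 46.9 units in KO CCI mice, against 16.8, 18.5, 17.5 and 16.1 in control CCI mice, and 29.1, 14.3, 29.8 and 10.6 in KO sham mice, against 12.1, 16.5, 13.1 and 7.74 in control sham mice. Its values are dim and the sham groups overlapped (0.34, SE 0.12, adjusted p = 0.572), and without the 3 arrays the Kcnj4 difference was 0.47 (SE 0.116, adjusted p = 0.0954). In medulla the smallest p values were those of Kcnj1, a kidney inward rectifier, at 0.27 (SE 0.12, unadjusted p = 0.0386) and of Kcnc1 at 0.28 (SE 0.12, unadjusted p = 0.0387), both with an adjusted p of 1. Kcnc1 read 917, 961, 810 and 669 units in KO CCI medulla, against 477, 522, 819 and 802 in control CCI medulla. It read 872, 774, 758 and 663 in KO sham medulla, against 612, 584, 637 and 850.0 in control sham medulla. Its difference changed sign between the array codes, at 0.67 within the lower and -0.08 within the higher.

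Cckbr lies on chromosome 7, and 7 of the 61 genes lie there too. The nearest, Kcne3, has 50 measured genes between it and Cckbr and read 0.06 in midbrain and 0.13 in medulla. The others, Kcnc1, Kcnj11, Kcnj14, Kcna7, Kcnq1 and Kcnn4, have 218 to 484 measured genes between. Their KO minus control differences ran from 0.04 to 0.23 in midbrain and from 0.01 to 0.28 in medulla, and none passed. Without the 3 arrays that stood apart Kcne3 read 0.28 in midbrain (adjusted p = 0.221) and 0.08 in medulla. The others then ran from -0.07 (Kcnn4) to 0.365 (Kcna7, adjusted p = 0.13) in midbrain. In medulla they ran from 0.03 (Kcna7) to 0.30 (Kcnj14), and again none passed.

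CCI against sham asks whether the injury goes with another channel level in the brain stem. It gave 0 of 89 probe sets in each of the 4 comparisons, as it gave 0 of 22626 over all probe sets (0%). At an unadjusted p under 0.05 stood 10 of 89 in KO midbrain (8.23% of all probe sets), 8 in KO medulla (4.24%), 6 in control midbrain (3%) and 5 in control medulla (2.80%). The median difference of the 61 genes was 0.037, 0.009, -0.016 and 0.004 in these comparisons. Without the 3 arrays 10 of 89 stood at that unadjusted p in KO midbrain (7.65% of all probe sets) and 8 in KO medulla (3.98%), and none was called.

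In KO midbrain the smallest p values were those of Kcnip4 and Kcnj3, so groups that do not overlap are no further evidence here. Kcnip4 read 443, 402, 375 and 382 units in KO CCI midbrain, against 348, 254, 330.0 and 325 in KO sham midbrain. The groups did not overlap, and the difference of 0.33 (SE 0.097, unadjusted p = 0.00379) had an adjusted p of 0.601. The lowest value of Kcnip4 came from KO sham midbrain 2, the array with the highest Actb 3' to 5' ratio, and without the 3 arrays the difference was 0.22 (SE 0.104, adjusted p = 0.671). Its second probe set read 0.48 with these arrays and 0.07 without them. In control mice the arrays overlapped, at 380.4, 408, 331 and 375 units after CCI and 389, 440.3, 353 and 375 after sham. Kcnj3, a G protein-gated subunit, read 116, 96.1, 96.8 and 92.3 units in KO CCI midbrain, against 77.5, 39.3, 81.9 and 84.3 in KO sham midbrain (0.44, SE 0.14, adjusted p = 0.601). These groups did not overlap either, and the lowest value came from KO sham midbrain 2, without which, and without the other 2 arrays, Kcnj3 read 0.29 (adjusted p = 0.551). The genotype by CCI interaction in midbrain read 0.42 for Kcnip4 (adjusted p = 0.822; 0.30 without the 3 arrays, adjusted p = 1) and was called for 0 of 89 probe sets, with 4 at an unadjusted p under 0.05 (5.48% of all probe sets). In medulla it was also called for 0, with 7 (2.67%). Over all probe sets both were at 0%. Without the 3 arrays the member counts at that p were 7 in midbrain (4.08%) and 5 in medulla (2.89%), and no member was called.

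In KO medulla Kcnip1 read 263, 229, 239 and 239 units after CCI, against 306, 265, 270 and 271 after sham (-0.23, SE 0.081, adjusted p = 0.993), and its other 3 probe sets read 0.05, 0.10 and 0.20. These arrays of Kcnip1 did not overlap between the operations, and without KO sham medulla 3 the difference was -0.24 (adjusted p = 0.999). Kcne4, an accessory subunit that restrains Kcna and Kcnq channels, read 31.6, 44.03, 31.9 and 53.8 units after CCI, against 65.1, 60.1, 42.3 and 58.0 after sham in KO medulla (-0.35, SE 0.12, adjusted p = 0.993). Without KO sham medulla 3, which held the lowest sham value, Kcne4 read -0.42 (adjusted p = 0.999). In control medulla Kcnq1, best known from heart and inner ear, read 20.7, 15.1, 20.3 and 21.1 units after CCI, against 10.9, 6.44, 12.3 and 11.5 after sham (0.46, SE 0.16, adjusted p = 1). Kcnj5 there read 0.55, 7.19, 10.5 and 9.87 units after CCI, against 14.9997, 21.2, 13.96 and 11.03 after sham (-0.45, SE 0.18, adjusted p = 1). In control midbrain Kcnd3 read 24.6, 17.7, 23.4 and 23.3 units after CCI, against 32.0, 30.1, 26.9 and 44.4 after sham (-0.31, SE 0.12, adjusted p = 1), and Kcnj1 read 0.44 (SE 0.19, adjusted p = 1). The groups of Kcnq1, Kcnj5 and Kcnd3 did not overlap, but all 3 probe sets are dim and none of the differences passed. These genes and Kcnip1 were named for their small p, so groups that do not overlap are no further evidence here either.

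**Figure D4:**
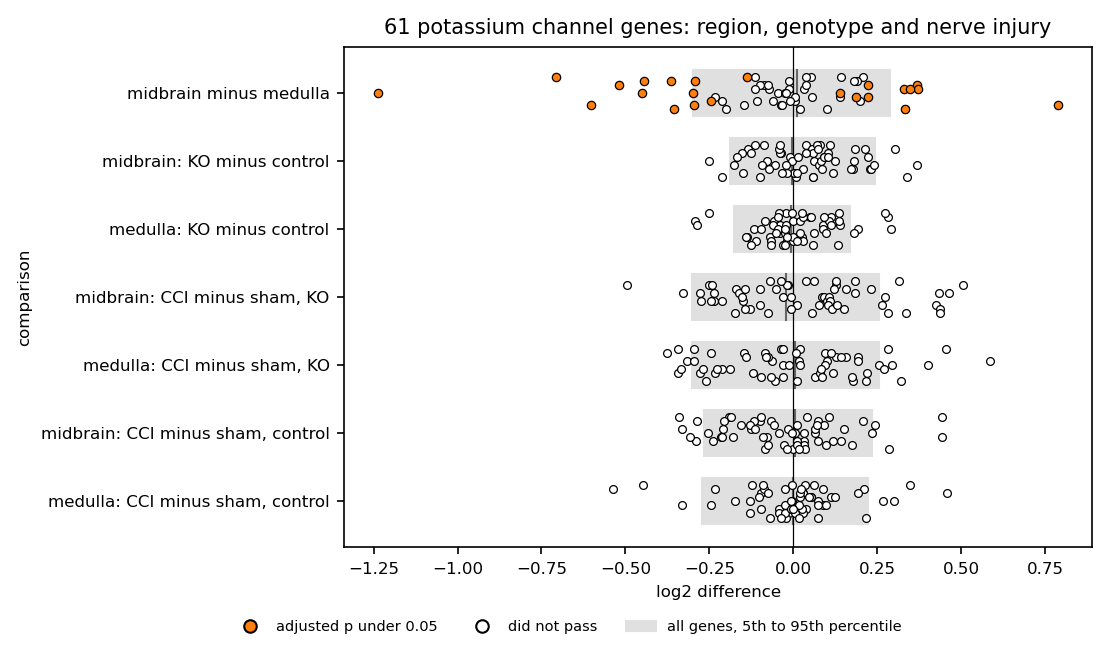
Log2 differences of the 61 genes for region, genotype (averaged over operation) and CCI (points, jittered vertically), over the span of all genes from the 5th to the 95th percentile (grey) with their median (line). Filled points passed the threshold: 23 for midbrain minus medulla and 0 in each of the other 6 comparisons.

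The intervals state what differences these arrays leave possible on the log2 scale used here, taken after a constant was added to each intensity. For genotype averaged over operation, the 95% confidence interval lay within 0.5 log2 units of 0 for 51 of the 61 genes in midbrain and 52 in medulla, and within 1 unit for all 61 in each. For CCI it lay within 0.5 for 31 genes in KO midbrain, 33 in KO medulla, 34 in control midbrain and 40 in control medulla, and within 1 unit for 60 or 61. Among the 25 brighter genes the counts within 0.5 for genotype were 21 in midbrain and 24 in medulla. A difference of 0.5 is 1.41-fold on this scale. The added constant shrinks the differences of dim probe sets. For the dimmer genes these counts therefore do not bound the fold change of the intensity itself.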

How the data were processed

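Total RNA (4 ug, TRIzol extraction) was labelled and hybridised to Affymetrix mouse arrays, per the labels' protocols. The authors deposited 1 intensity per probe set and array on a linear scale, some below 0, made with software that no label or header names. Values under 0 were set to 0, 16 was added, log2 was taken of the deposited values and the arrays were quantile normalized. The 64 AFFX control probe sets were left out. limma 3.58.1 (R 4.3.3, lmFit and eBayes) was fitted to all 22626 probe sets. Comparisons with region used 8 group means over 32 arrays, and the others 4 group means over the 16 arrays of a region. The fit was also run on simulated independent arrays, without animal pairs, array codes or arrays that stood apart. Benjamini-Hochberg adjustment was made within a comparison, with a threshold of 0.05. p-values measure the spread between the animals of a group. The main region fit held no term for the animal, so both regions of an animal entered it as independent arrays. All 23 region calls held with the animal as a block.

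Members and gene lists were chosen with earlier results of these data known, and 1 gene of the rule is not reported here. The cerebellar gene list and the fit without 3 arrays were chosen after these data were seen. Genes named were, per family and direction, up to 3 with the largest called region difference and, where no member passed, the 2 with the smallest p for genotype or CCI. Symbols came from the platform annotation, which gave 1 symbol to 20380 probe sets, and chromosomes and starts came from RefSeq (GRCm38.p6), which matched all 61 genes. The deposited intensities carry no detection call, so a dim level is not shown to be above background, and levels of different probe sets were not compared. No 2 arrays were identical (0 identical pairs). Consecutive array numbers in the descriptions place a midbrain and a medulla array with 1 animal, as the design takes both regions from each. Residuals of such pairs correlated at 0.171 on average (-0.061 to 0.384, over 16 pairs), against -0.056 for other pairs of a group. Title numbers pair the KO sham 3 and 4 arrays the other way, and pairs by title number correlated at 0.146. Alternatives covered normalization, pseudocounts of 1 and 64, a filter on dim probe sets, variance models, array weights, array code, animal blocks, omission of each array and the probe set chosen per gene. The number of arrays limits the precision.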

Additional observations from a re-analysis of the deposited data

Results flagged for a closer look

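Among the 31 named probe sets, 248 groups of 4 arrays were examined for a single array far from the other 3, and 12 (4.84%) held one. Chance alone marks about 1 group in 20. KO sham midbrain 4 was high for Kcnab1 (424 units, others 392 to 396), Kcnh2 (526, others 331 to 362) and Kcnj14 (66.6, others 26.8 to 32.3). KO sham midbrain 2 was low for Kcna2 (29.3, others 111 to 113) and Kcnj3 (39.3, others 77.5 to 84.3). KO CCI midbrain 1 was high for Kcna4 (86.3, others 63.5 to 66.1) and Kcnma1 (430.4, others 335 to 346). In medulla KO CCI 3 was high for Kcnj9 (143, others 48.5 to 54.4), KO CCI 4 for Kcnq1 (30.7, others 9.74 to 13.02), KO sham 1 for Kcnip1 (306, others 265 to 271) and control CCI 4 for Kcnab2 (1184, others 954 to 986), while control CCI 2 was low for Kcnq1 (15.1, others 20.3 to 21.1).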

How the results depend on the processing

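The counts of 0 members for genotype, CCI and every interaction stayed 0 under every setting run. All 23 region genes kept their direction under every setting, but only 17 kept their call under all settings that tested them other than a single array code or a single omission. Kcna2, Kcna6, Kcnab3, Kcnc4, Kcnd2 and Kcnj9 lost it under at least 1. Within the lower array code, with 1 or 2 animals a group, 15 probe sets (5 higher, 10 lower) and 12 genes were called; within the higher code 8 were called higher, and 15 genes in all. Also within the higher code, KO CCI mice had 4 probe sets (0.548% of all probe sets) and control CCI mice 4 (0.601%). Control sham mice had 2 there (0.53%) and KO sham mice 3 (1.03%). KO CCI mice had 17 with array weights (10.7% of all probe sets), and KO sham mice 2 when fitted alone (0.663%). The level of Ttr, a choroid plexus gene, was low in control sham medulla 4 and KO CCI medulla 1. Without these animals 17 genes were called (20.1% of all genes). There 9 probe sets were higher and control sham mice had 6, counts for which no share over all probe sets is given. Kcnc1 for genotype in medulla turned to -0.081 within the higher code. The causes were not tested. With the animal as a replicate block KO sham mice had 18 in place of 10, and no other count moved by over 1.5 times; title numbers across groups correlated at 0.054 on average.

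Leaving out each array in turn gave 26 to 31 region probe sets (10 to 14 higher, 15 to 18 lower) and 19 to 25 genes. Within groups it gave 8 to 12 probe sets in KO sham mice and 9 to 11 in KO CCI mice. It gave 6 to 12 in control sham (6 without control sham medulla 4) and 8 to 12 in control CCI mice. Shares over all probe sets are not given for these omissions, so the ranges do not show whether members moved with the whole array. Of the 23 calls 18 were never lost by an omission; Kcna6 was lost in 8 of 32, Kcnab3 in 20, Kcnc4 in 14, Kcnd2 in 24 and Kcnj9 in 22. Low signal limits the 36 genes averaging under 100 units, of which 6 were called.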
